A study of Rattus norvegicus with 6 samples.

Results

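The effect of a Western diet (WD) on the RNA bound to few ribosomes in rat liver was examined by setting the light fraction from WD-fed animals beside that from animals fed a control diet (CD). The light fraction is the part of a sucrose gradient that holds mRNA carrying 3 or fewer ribosomes, and the heavy fraction holds mRNA carrying 4 or more. Loci were compared where the expression table gave a gene symbol, a valid estimate and, over all 6 libraries of the series, a mean no lower than 1 FPKM (fragments per kilobase of transcript, scaled to library size). This left 10201 of 33022 loci, carrying 10093 different symbols, and 2 of the 6 libraries were compared. The other libraries, total RNA and the heavy fraction of each diet, are given beside them.

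The animals were male obesity-prone Sprague Dawley rats of 160 to 190 g at the start, whose age was not given in the sources used here. They ate the low-fat CD (TD 08485) or the WD (TD 88137), which is rich in milk fat, sucrose and cholesterol, for 2 weeks, were fasted overnight and were then refed their own diet for a short time before liver was taken. RNA of 3 rats was pooled for each library, so each diet and fraction had 1 library. No spread between animals could be measured, no p-value can be given, and every difference below is a difference between 1 pooled library and another. In whole liver, fewer cells of a type and less RNA per cell cannot be told apart.

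An mRNA is read by several ribosomes at once when initiation is frequent, so mRNAs that are initiated rarely, or whose coding sequence is short, sediment with few ribosomes. Messengers of the translation machinery form a known class, the TOP mRNAs, whose first bases are a C followed by a run of pyrimidines, and which are held back from polysomes when growth signalling through mTOR is low. Insulin and nutrients raise this signalling in liver after a meal, while dietary cholesterol lowers the expression of sterol synthesis genes.

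The windows around annotated transcription starts are shown for 5 members of the translation machinery and 2 mRNAs that were lower in the WD light library, because the start tract is the sequence feature that defines the TOP class. Each window holds 10 bases before and 20 bases from the start, 5′ to 3′ on the transcript strand (RefSeq, GRCr8, a later build than that of the expression table). Capitals mark a C followed by at least 4 C or T, beginning within 5 bases on either side of the annotated start. Rpl23 lies at chr10:83272165-83272194 on the minus strand, Rps18 at chr20:4933735-4933764 on the plus strand, Rpl39 at chrX:121195877-121195906 on the minus strand and Eef1a1 at chr8:88225050-88225079 on the minus strand. Rpl24, the ribosomal protein gene with the widest light ratio among those with fragments in both libraries, lies at chr11:58128386-58128415 on the minus strand and has no such tract in the window. Fads1 lies at chr1:216252682-216252711 and Dusp1 at chr10:17184843-17184872, both on the plus strand and also with no such tract.
Rpl23: cttcctttctgaCTCTTTCCggacgctcaa
Rps18: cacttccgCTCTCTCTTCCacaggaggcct
Rpl39: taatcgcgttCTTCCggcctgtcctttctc
Eef1a1: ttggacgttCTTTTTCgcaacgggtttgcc
Rpl24: tagggaggagattctctaccctataaggtg
Fads1: agttggcgaggctggcgtgcgctgcctcgc
Dusp1: gaaccagcgcgcagcaaaggactggcgggc

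Such a tract was found at the start of 1368 of the 7678 compared symbols with a start window, which was 17.8%. It was found in 29 of 45 cytosolic ribosomal protein genes (64.4%) and in 10 of 21 other genes on the TOP list (47.6%), but in 2 of 15 genes of fatty acid synthesis (13.3%) and in 1 of 17 immediate-early genes (5.88%). Among genes outside the ribosome, the median log2 change between the light libraries was 0.045 for the 1341 loci with the tract and 0.019 for the 6319 loci without it. The shares at least 1.5-fold higher in WD were 24.4% and 25.1%. Among ribosomal protein loci the median was 1.57 for the 30 with the tract (73.3% higher) and 0.96 for the 16 without it (68.8% higher). A match is a run of letters and not a measured start.

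The libraries differed in depth and in content, and this bears on every value below. Numbers of fragments were inferred from the FPKM values for 7256 of the loci. They gave 190053 fragments in the CD light library (median 10 per locus) and 455207 in the WD light library (median 22 per locus). The other 4 libraries held 212336 to 298990. By this inference the WD light library was 2.17 times as deep as the CD light library. It was also high against the rest of the series at more loci than any other library was. At 164 loci it was at least 4-fold above each of the other 5 libraries (values with 0.1 FPKM added), while the CD light library was so at 18 loci and the remaining libraries at 14 to 45. A locus high in a single library could pass the filter on the mean through that library alone. The CD light library was at least 4-fold below each of the others at 198 loci, against 25 for the WD light library and 270 or more for each heavy library.

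**Figure D1:**
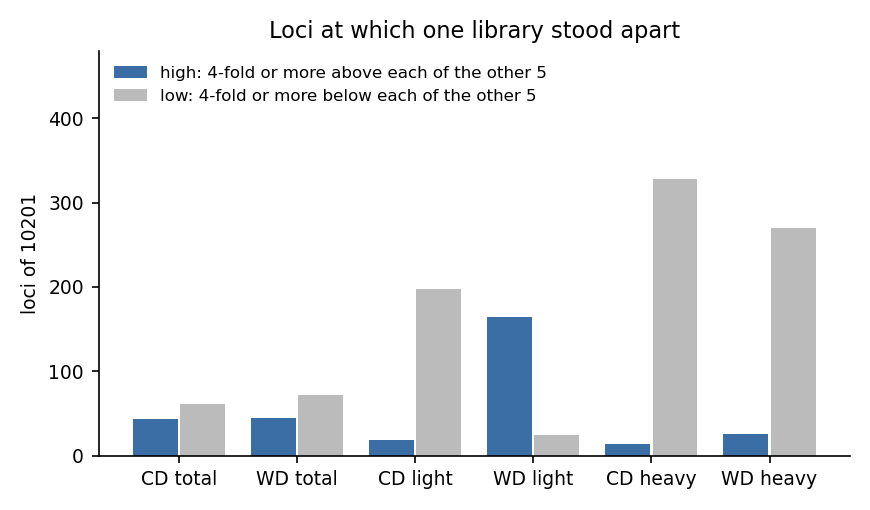
Number of the 10201 loci (vertical axis) at which 1 library was at least 4-fold above (blue bars) or below (grey bars) each of the other 5, for each of the 6 libraries. The WD light library was high at 164 loci, where the others were high at 14 to 45, and the 2 libraries of the heavy fraction were low at 328 and 270.

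Named genes of ordinary coding mRNA made up 54 of the 117 loci that stood apart in this way with at least 20 FPKM in the WD light library, and 18 of the 164 were cytosolic ribosomal protein genes. Of the 87 such loci that were matched to a RefSeq gene, 41 (47.1%) had at least 1 pseudogene named after them, against 1269 of 9228 matched loci in all (13.8%). Reads from a gene and from its near-identical copies may be split or joined by the mapping, so the levels of these genes are uncertain. The part of depth and of gene copies in the results was not tested.

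The label of the fraction was checked against what the light libraries held. The ribosomal protein mRNAs, which are short, were higher in the light than in the heavy library of each diet, with medians of log2 light over heavy of 0.85 (CD) and 2.17 (WD) for the large subunit and 0.72 (CD) and 1.66 (WD) for the small subunit, where all loci had medians of -0.012 and 0. Other lists of mostly short transcripts differed from this. Complex I was at -0.17 (CD) and 0.12 (WD), complexes II to V at -0.27 and -0.30, and mitochondrial ribosomal proteins at 0 and 0.19. By inferred transcript length, the shortest group of all loci was at 0 (CD) and 0.39 (WD), the longest at -0.10 and 0.061. The check thus rests on chosen lists and does not establish the label. Its WD values come from the same WD light library that is compared below. The plasma carrier proteins, secreted products such as albumin, were lower in the light than in the heavy library, at -1.22 (CD) and -1.25 (WD). All 12 hepatocyte markers were present, led by Alb at 25611 FPKM in the CD light and 24966 FPKM in the WD light library. Their median log2 change was -0.11, and those of the Kupffer cell, sinusoidal endothelial and stellate cell markers were -0.002, -0.17 and -0.12. Markers of blood cells behaved otherwise and are given at the end.

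Over all 10201 loci the median log2 change, WD over CD on FPKM with 0.1 added, was 0.017, against 0.022 in total RNA and -0.015 in the heavy fraction. This centre depends on the scale, which the authors' normalization set. With equal sums over loci with a symbol the light median was -0.29, and with equal sums over all loci 0.70. The light change lay between -0.46 and 0.61 for the central 50% of loci and between -1.84 and 5.20 for the central 95%. At least 1.5-fold higher in the WD light library were 2642 loci (25.9%), and at least 1.5-fold lower were 2097 (20.6%). In total RNA the same counts were 1804 (17.7%) and 1738 (17%), and in the heavy fraction 2214 (21.7%) and 2098 (20.6%). These percentages are the background against which each gene group is read below.

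The excess of higher loci lay among weakly expressed genes. At a mean of 1 to 3 FPKM the median change was 0.19 and 38.3% of 2580 loci were higher, whereas at 100 FPKM or more the median was -0.16, with 14.2% of 647 loci higher and 24.1% lower. There were 519 loci (5.09%) listed at 0 in the CD light library only and 81 (0.794%) in the WD light library only. To set sampling apart from larger differences, an exact 95% interval of the ratio was computed from the inferred fragments of 7190 loci. The interval lay above the median ratio of 0.996 at 613 loci (8.53%), below it at 652 loci (9.07%) and included it at 5925. Such an interval compares 2 libraries rather than the diets, and it reflects counting error alone, since duplicated fragments cannot be recognised.

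The mRNAs of the cytosolic ribosome had the highest medians in the light comparison among functional lists of at least 9 compared members. Of 79 genes on the large and small subunit lists, 60 were compared, and 41 of them were at least 1.5-fold higher and 8 at least 1.5-fold lower. The filter took the mean over all 6 libraries, so some of the 60 passed it through a single light library. Rpl27, Rpl30 and Rps19 did so through the WD light library, and Rpl37 through the CD light library. The direction of such genes was fixed by the filter. They are included in the counts and medians, and their number was not determined. The median log2 change was 1.14 for the 36 large subunit genes (25 higher, 4 lower) and 0.83 for the 24 small subunit genes (16 higher, 4 lower). In total RNA and in the heavy fraction the median for all 60 was 0. The interval lay above the median ratio for 30 of the 47 with fragment numbers and below it for 8.

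The direction went with the mean of the 2 light libraries. That mean is made of the same values as the change, so the grouping itself partly sets the medians. All 9 genes listed at 0 in the CD light library fell in the lowest group. The 27 genes with a light mean under 100 FPKM had a median change of 2.14, the 21 from 100 to 500 FPKM had 0.90, and the 12 at 500 FPKM or more had -0.11, with 3 higher and 3 lower. The summed FPKM of all 60 was accordingly nearly equal, 20850 in the CD light and 20792 in the WD light library. The weak end was also where counting was poorest. Of the 60 genes 9 were listed at 0 in the CD light library, and Rpl37 was listed at 0 in the WD light library and at 8.74 FPKM in the CD light library.

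Rpl23 and Rpl24, proteins of the large subunit, and Rps2, of the small subunit, showed the widest gaps with fragments in both libraries. Rpl23 was at 7.09 FPKM in the CD light and 307 FPKM in the WD light library (1 and 94 inferred fragments; ratio interval 7.57 to 1725), and its total RNA was 14.5 (CD) and 10.1 FPKM (WD). Rpl24 was at 4.16 and 266 FPKM in the light libraries and at 22.7 and 14.9 FPKM in total RNA. Rps2 was at 1.88 and 95.1 FPKM in the light libraries (1 and 110 fragments), and between 0 and 2.02 FPKM in the others. For all of these genes the WD light library alone was high. Rpl17 of the large subunit was listed at 0 in the CD light library and at 114 FPKM in the WD light library, and Rps19 of the small subunit at 0 and 121 FPKM. Rps19 passed the filter only through its WD light value, so the direction of its change was fixed in advance. A separate small nucleolar RNA locus lay within 1 kb of each of Rpl23, Rpl6, Rpl27a and Rps20, and reads of such neighbours may be joined.

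A better counted gene showed a smaller gap. Rps18, a small subunit protein, was at 226 FPKM in the CD light and 423 FPKM in the WD light library (45 and 183 fragments; interval 1.34 to 2.65), against 41.2 and 64.6 FPKM in total RNA.

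The most abundant ribosomal protein mRNAs were divided, and some were lower in the WD light library. Rps29 was at 5328 FPKM in the CD light and 2550 FPKM in the WD light library (interval 0.419 to 0.546), while total RNA was at 1604 and 1540 FPKM and the heavy fraction at 810 and 992 FPKM. Rps25 was at 1354 and 403 FPKM (interval 0.234 to 0.377), and Rpl39 at 2180 and 1012 FPKM (interval 0.382 to 0.564). Each of these was higher in the CD light library than in any other library of the series. The Rpl39 locus of the expression table lies on chromosome 14 and the RefSeq gene on chromosome X, so its reads may come from a copy. Rpl41, at 3193 and 2650 FPKM, and Rps15, at 1054 and 1101 FPKM, differed by less than 1.5-fold.

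**Figure D2:**
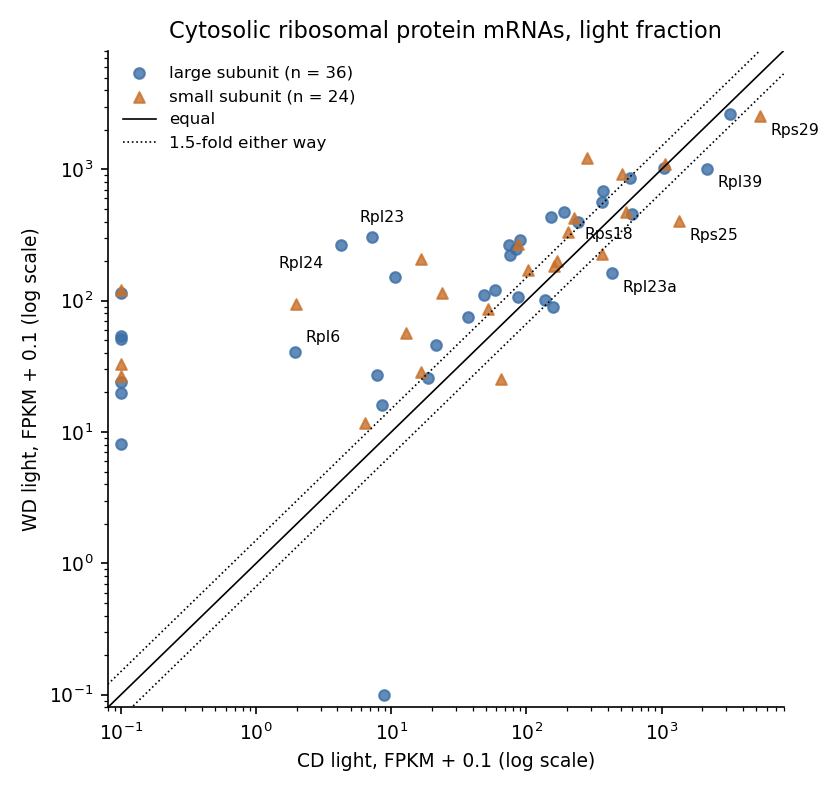
FPKM with 0.1 added in the CD light library (horizontal, log scale) and the WD light library (vertical, log scale) for the 60 ribosomal protein genes compared, circles for the large and triangles for the small subunit, with lines at equality and at 1.5-fold. Genes at the left edge were listed at 0 in the CD light library, and Rps29, Rpl39, Rps25 and Rpl23a lie below the lower line.

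All 60 ribosomal protein genes had at least 1 pseudogene named after them in RefSeq. Counted by locus, with 2 loci for Rps10, the median change was -0.034 for the 2 loci with 1 or 2 such copies, 0.98 for the 20 loci with 3 to 9 and 1.09 for the 39 loci with 10 or more. Among other loci, the share at least 1.5-fold higher was 24.3% with no copy, 28.2% with 1 or 2, 32.7% with 3 to 9 and 31.6% with 10 or more, where the median of the 38 loci was -0.0087. Without the 18 ribosomal protein genes that stood apart in the WD light library, the other 42 had a median of 0.73, with 23 higher and 8 lower. With 50 or more fragments over both light libraries, 40 genes had a median of 0.80.

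Outside the ribosome the TOP list was divided. Its 26 other members had a median light change of 0.051, with 10 higher and 3 lower. Eef1a1, the elongation factor that brings aminoacyl-tRNA to the ribosome, was at 58.2 FPKM in the CD light and 823 FPKM in the WD light library (54 and 1661 fragments; interval 10.8 to 18.9). It was at 75.1 and 63.9 FPKM in total RNA and at 40.5 and 30.5 FPKM in the heavy fraction, so the WD light library alone was high. Gnb2l1, which encodes the ribosome-bound scaffold RACK1, was at 24.1 and 99.2 FPKM in the light libraries and at 24.3 and 20.0 FPKM in total RNA. Eef2, which moves the ribosome along the mRNA, was at 459 and 468 FPKM and did not differ by 1.5-fold. Tomm20, a receptor of mitochondrial protein import, was lower, at 172 and 83.9 FPKM (interval 0.369 to 0.641).

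The 33 initiation factors had a median of 0.21, with 12 higher (36.4%) and 1 lower (3.03%). The interval was above the median ratio for 3 of 26 and below it for 1. Eif1, which selects the start codon, was at 380 FPKM in the CD light and 581 FPKM in the WD light library (interval 1.35 to 1.72), and Eif5, which triggers GTP hydrolysis at the start codon, at 82.5 and 58.9 FPKM (interval 0.60 to 0.853). Among the 14 factors without a named pseudogene the median was 0.055. The 20 cytosolic tRNA synthetases had a median of 0.09 and the 69 mitochondrial ribosomal proteins one of 0.14, with 22 higher and 14 lower.

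Genes of fatty acid synthesis and desaturation formed the functional list with the lowest median in the light comparison. Of 17 compared, 9 (52.9%) were at least 1.5-fold lower and 2 higher in the WD light library, and the median log2 change was -0.67. The medians in total RNA and in the heavy fraction were -0.48 and -0.55. Intervals lay below the median ratio for 6 of 10 genes with fragment numbers and above it for 1.

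Fads1, the delta-5 desaturase of polyunsaturated fatty acid synthesis (chromosome 1, 226234074 to 226249138, Rnor_6.0), was at 70.8 FPKM in the CD light and 11 FPKM in the WD light library (178 and 60 fragments; interval 0.114 to 0.209). It was at 50.0 and 13.6 FPKM in total RNA and at 67.1 and 12.9 FPKM in the heavy fraction. All 3 WD libraries were thus below all 3 CD libraries. Fads2, the delta-6 desaturase beside it on chromosome 1, was at 296 and 108 FPKM in the light libraries (interval 0.302 to 0.437), 131 and 65.5 FPKM in total RNA, and 463 and 313 FPKM in the heavy fraction.

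Scd1, which makes monounsaturated from saturated fatty acids, was at 439 FPKM in the CD light and 163 FPKM in the WD light library, against 424 and 268 FPKM in total RNA and 372 and 230 FPKM in the heavy fraction. Elovl5, an elongase of polyunsaturated fatty acids, was at 145 and 62.6 FPKM in the light libraries (interval 0.324 to 0.578), and its ratio was nearer to 1 in total RNA (215 and 177 FPKM). The genes of the pathway did not all take this direction. Fasn, the fatty acid synthase, was at 10.9 and 14.5 FPKM (interval 1.03 to 1.76), and the transcription factor genes Srebf1 and Mlxipl, which encode activators of lipid synthesis, were at 26.1 and 43.1 FPKM and at 7.46 and 13.6 FPKM.

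Cholesterol synthesis was lower by a smaller amount, and less so in the light fraction than in the others. The 24 genes had a median of -0.26 in the light fraction (3 higher, 7 lower), -0.49 in total RNA and -0.45 in the heavy fraction. Msmo1, which removes methyl groups from lanosterol, was at 26.4 FPKM in the CD light and 11.4 FPKM in the WD light library (interval 0.259 to 0.723). Nsdhl, a sterol dehydrogenase, was at 109 and 79.5 FPKM (interval 0.616 to 0.858). Hmgcs1, which makes the precursor of mevalonate, was the exception with an interval above the median ratio, at 42.8 and 60.4 FPKM (1.12 to 1.79), although its total RNA was at 57.1 and 39.7 FPKM. Lss was at 1.75 and 29.3 FPKM in the light libraries and between 1.88 and 3.89 FPKM in the others.

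The list of fatty acid oxidation and ketogenesis showed 22 of 30 members below the median of all loci, with a median of -0.29. At least 1.5-fold higher were 4 (13.3%) and lower were 6 (20%), where all loci had 25.9% and 20.6%. In total RNA and the heavy fraction the medians were -0.23 and -0.34. Cyp4a1, a fatty acid omega-hydroxylase induced through PPAR alpha, was at 310 FPKM in the CD light and 107 FPKM in the WD light library, and was also lower in total RNA (403 and 204 FPKM) and in the heavy fraction (448 and 211 FPKM). Hadhb, the thiolase subunit of the mitochondrial trifunctional protein, was at 195 and 94.5 FPKM in the light libraries (interval 0.408 to 0.576) but at 234 and 240 FPKM in total RNA and at 379 and 363 FPKM in the heavy fraction. Ppara itself was at 71.2 and 38.8 FPKM in the light libraries and at 57.2 and 58.6 FPKM in total RNA. Acadm, the medium-chain dehydrogenase of beta oxidation, stood on the other side, at 123 and 187 FPKM (interval 1.27 to 1.81).

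Triglyceride synthesis and lipid droplet genes had a median of -0.37 over 20 members, against -0.10 in total RNA and -0.11 in the heavy fraction. In the light fraction 4 were higher (20%) and 5 lower (25%), near the 25.9% and 20.6% of all loci. Agpat2, which acylates lysophosphatidic acid, was at 151 FPKM in the CD light and 63.0 FPKM in the WD light library (interval 0.313 to 0.554), with 51.2 and 48.4 FPKM in total RNA. Cideb, a lipid droplet protein needed for lipoprotein loading, was at 142 and 68.0 FPKM (interval 0.368 to 0.625). Mttp, which loads lipid onto apolipoprotein B, was at 20.9 and 34.2 FPKM (interval 1.23 to 2.21), so members of the export route lay on both sides.

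Bile acid genes passed 1.5-fold in either direction at shares near those of all loci. The 19 members had a median of -0.28, with 4 higher (21.1%) and 5 lower (26.3%), where all loci had 25.9% and 20.6%. Their medians were 0.012 in total RNA and -0.12 in the heavy fraction. Cyp7a1, the rate-limiting enzyme of bile acid synthesis, was at 30.6 FPKM in the CD light and 58.8 FPKM in the WD light library (80 and 334 fragments; interval 1.5 to 2.48), and was higher in WD in total RNA (22.2 and 50.6 FPKM) and in the heavy fraction (28.4 and 56.6 FPKM). Baat, which conjugates bile acids to glycine and taurine, was at 80.9 and 180 FPKM in the light libraries (interval 1.78 to 2.81) but at 194 and 205 FPKM in total RNA. Cyp8b1, which directs synthesis to cholic acid, was at 163 and 82.8 FPKM (interval 0.423 to 0.612), with 282 and 212 FPKM in total RNA and 216 and 162 FPKM in the heavy fraction.

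**Figure D3:**
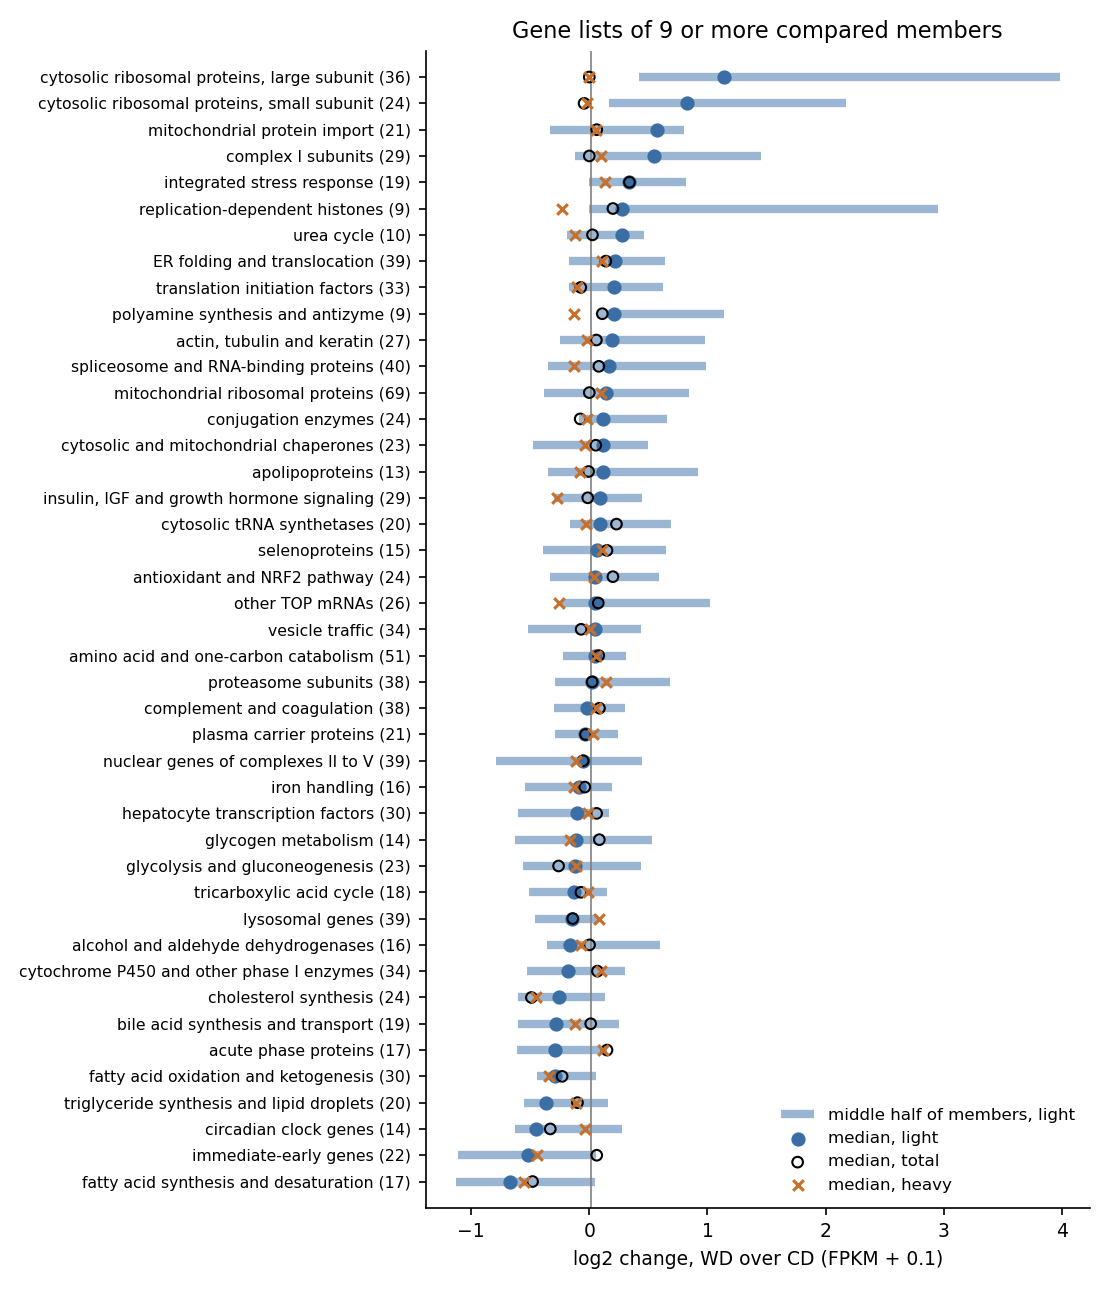
Median log2 change, WD over CD, of each gene list with at least 9 compared members in the light fraction (filled circle, with a bar over the central 50% of members), in total RNA (open circle) and in the heavy fraction (cross), with the number of members in brackets and a line at the median of all loci in the light fraction. Ribosomal proteins lie highest in the light fraction alone, and fatty acid synthesis lies lowest in the light fraction, with low medians in the other RNAs too.

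Immediate-early genes, the fast transcriptional targets of growth factor and stress signals, had the second lowest median. Of 22 compared, 10 (45.5%) were at least 1.5-fold lower and 3 higher in the WD light library, and the median was -0.52. It was 0.063 in total RNA and -0.44 in the heavy fraction. The 4 lowest, Klf2, Fosl2, Nr4a1 and Gadd45g, had at most 21 inferred fragments where numbers were found, and of these Gadd45g, a stress-induced growth inhibitor, had an interval below the median ratio (30.2 and 13.2 FPKM; 0.225 to 0.849). Jund, the most abundant member, was at 111 FPKM in the CD light and 75.2 FPKM in the WD light library (interval 0.54 to 0.857).

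Dusp1 and Dusp6, phosphatases that switch off MAP kinases, were chosen for description after their values were seen. Dusp1 was at 74.5 FPKM in the CD light and 34.9 FPKM in the WD light library (101 and 103 fragments; interval 0.353 to 0.623), at 66.5 and 33.7 FPKM in total RNA and at 45.1 and 24.0 FPKM in the heavy fraction. Dusp6 was at 57.1 and 26.3 FPKM in the light libraries (interval 0.352 to 0.602). Dusp6 was also lower in WD in total RNA (49.0 and 21.5 FPKM) and in the heavy fraction (101 and 33.6 FPKM). Sik1, a kinase induced by cyclic AMP, was the one member with an interval above the median ratio, at 1.87 and 4.55 FPKM (interval 1.07 to 6.46).

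Cish and Trib1 were among the genes with the lowest light ratios. Cish, an inhibitor of cytokine and growth hormone signalling through STAT5 (chromosome 8, 116054465 to 116060723), was at 21.5 FPKM in the CD light and 0.991 FPKM in the WD light library (50 and 5 fragments; interval 0.0143 to 0.115). It was at 14.1 and 0.924 FPKM in total RNA and at 24.1 and 1.36 FPKM in the heavy fraction, the lowest light ratio among the well counted genes with a level of 10 FPKM or more. Trib1, a pseudokinase that controls hepatic lipogenesis, was at 36.1 and 5.98 FPKM in the light libraries, 28.6 and 13.9 FPKM in total RNA and 24.0 and 12.9 FPKM in the heavy fraction.

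Fgf21, a hormone that liver secretes in fasting and under protein or sugar stress, was at 105 FPKM in the CD light and 27.6 FPKM in the WD light library (35 and 20 fragments; interval 0.144 to 0.468). Its total RNA was at 55.5 and 27.9 FPKM, while the heavy fraction held 129 and 126 FPKM. Other members of the integrated stress response, which senses amino acid lack, lay higher, and the list of 19 had a median of 0.34 (7 higher, 1 lower), equal to the 0.34 of total RNA. No interval of this list lay above the median ratio and 2 of 13 lay below it, those of Fgf21 and of Atf4, the central transcription factor, at 117 and 89.5 FPKM (0.599 to 0.974).

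Mgst3, a microsomal glutathione transferase, was lower in the light fraction only among the 3 RNAs, at 138 FPKM in the CD light and 33.9 FPKM in the WD light library against 63.6 and 87.2 FPKM in total RNA and 200 and 225 FPKM in the heavy fraction. Coq10b, a coenzyme Q binding protein, was at 37.8 and 9.11 FPKM in the light libraries and at 22.2 and 9.66 FPKM in total RNA. Onecut1, a transcription factor of hepatocyte identity, was at 82.6 and 26.4 FPKM (interval 0.244 to 0.418), at 83.1 and 24.4 FPKM in total RNA and at 19.9 and 6.28 FPKM in the heavy fraction. Foxa1, a pioneer factor of the same network, was at 31.7 and 13.3 FPKM in the light libraries. The 30 hepatocyte transcription factors had a median of -0.10, with 4 higher and 8 lower.

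**Figure D4:**
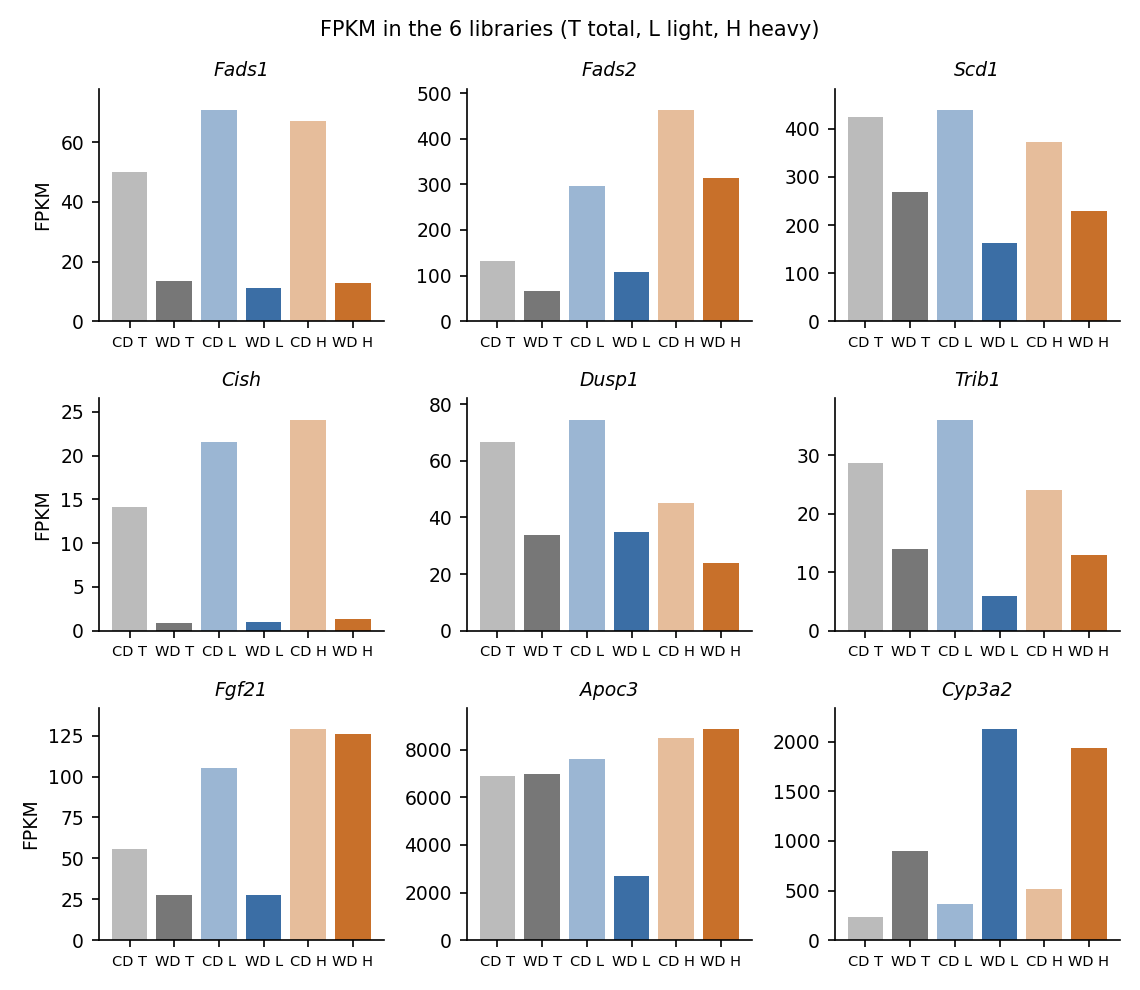
FPKM (vertical axis, from 0) of 9 genes in each of the 6 libraries, with CD and WD side by side for total RNA (T), the light fraction (L) and the heavy fraction (H). Fads1 and Cish were lower in WD in each RNA, Apoc3 was lower in the light fraction only, and Cyp3a2 was higher in WD in each RNA.

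Among drug metabolising enzymes, 1 gene differed more than the others of high level. Cyp3a2, a major hepatic monooxygenase of steroids and drugs, was at 362 FPKM in the CD light and 2126 FPKM in the WD light library (169 and 2160 fragments; interval 5.02 to 6.92). It was at 230 and 898 FPKM in total RNA and at 515 and 1937 FPKM in the heavy fraction, so the 3 WD libraries were above the 3 CD libraries. The other members of the P450 list were mixed. Its 34 genes had a median of -0.18 with 6 higher (17.6%) and 7 lower (20.6%). Cyp2b3 was at 217 and 88.4 FPKM in the light libraries and at 372 and 331 FPKM in total RNA, and Cyp2e1, the ethanol-inducible member, at 1112 and 975 FPKM. Closely related P450 genes share sequence, so reads may be split among them.

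Secreted proteins did not move as one group. The apolipoproteins had a median of 0.12 over 13 genes (4 higher, 3 lower), the plasma carriers -0.037 over 21 (3 higher, 3 lower), and the complement and coagulation proteins -0.023 over 38 (7 higher, 3 lower). The acute phase proteins had a median of -0.29 over 17 (2 higher, 5 lower), against 0.15 in total RNA and 0.12 in the heavy fraction.

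Apoc3, an inhibitor of lipoprotein clearance (chromosome 8, 50529318 to 50531498), was at 7626 FPKM in the CD light and 2679 FPKM in the WD light library, while total RNA held 6883 and 6989 FPKM and the heavy fraction 8512 and 8871 FPKM. Apoa2, a protein of high density lipoprotein, was at 8037 and 4251 FPKM in the light libraries and at 5729 and 4920 FPKM in total RNA. Ttr and Rbp4, carriers of thyroid hormone and retinol, were at 7852 and 4421 FPKM and at 7130 and 3772 FPKM. Fgg, the fibrinogen gamma chain, was at 1064 and 516 FPKM in the light libraries and at 2121 and 2318 FPKM in total RNA.

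Other secreted products were higher in the WD light library. Apoa5, which promotes triglyceride clearance, was at 45.6 FPKM in the CD light and 121 FPKM in the WD light library (interval 2.02 to 3.51) with 127 and 135 FPKM in total RNA. Apoe, a ligand of lipoprotein receptors, was at 575 and 1351 FPKM in the light libraries and at 2101 and 2004 FPKM in total RNA. Apoa1 was at 246 and 626 FPKM, but a second locus with the same coordinates, AABR07070085.1, was at 11104 and 3769 FPKM, and the division of reads between them is not known. Ahsg, a carrier of calcium phosphate, was at 1200 and 2402 FPKM, and Proc, the anticoagulant protein C, at 16.7 and 55.5 FPKM (interval 2.12 to 5.45). The complement gene C6 was lower in each RNA, at 109 and 34.2 FPKM in the light libraries, 170 and 84.5 FPKM in total RNA and 821 and 393 FPKM in the heavy fraction.

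Complex I subunits differed from the pooled list of complexes II to V. The 29 compared subunits of complex I had a median of 0.55 in the light fraction, with 14 higher (48.3%) and 4 lower, against 0.00011 in total RNA and 0.10 in the heavy fraction. Ndufb9 was at 2.54 FPKM in the CD light and 123 FPKM in the WD light library (1 and 105 fragments), with 8.70 FPKM in CD total RNA and a listed 0 in WD total RNA, and it has no named pseudogene. Ndufb5 was lower, at 116 and 62.2 FPKM (interval 0.392 to 0.736), as was Ndufb2, at 432 and 273 FPKM (interval 0.474 to 0.843). The 19 complex I genes without a named pseudogene had a median of 0.38. The 39 nuclear genes of complexes II to V had a median of -0.053, with 9 higher (23.1%) and 12 lower (30.8%), where all loci had 25.9% and 20.6%. Their interval lay below the median ratio for 12 of 35 and above it for 7, where all loci had 9.07% below and 8.53% above.

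Among those, subunits of ATP synthase lay on both sides. Atp5l was at 2492 FPKM in the CD light and 1091 FPKM in the WD light library (537 and 511 fragments; interval 0.387 to 0.495), with 939 and 906 FPKM in total RNA. Atp5g3 and Atp5j had intervals of 0.286 to 0.581 and 0.287 to 0.592. Atp5g1 was at 17.8 and 94.9 FPKM (interval 2.16 to 17), and Atp5e, the most abundant subunit, at 3179 and 3475 FPKM (interval 0.976 to 1.23). Uqcrb of complex III was at 72.5 and 18.4 FPKM (interval 0.151 to 0.419), and Cox7b of complex IV was at 106 and 366 FPKM (interval 2.22 to 5.57). Mitochondrial protein import had a median of 0.57 over 21 genes (10 higher, 3 lower), but -0.10 when only genes with a mean of at least 10 FPKM were kept, and Tomm22, a receptor of the outer membrane, was at 125 and 60.3 FPKM (interval 0.352 to 0.663).

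Protein folding and degradation in the secretory route also showed a division. The 39 genes of ER folding and translocation had a median of 0.22 (11 higher, 5 lower), with intervals above the median ratio for 11 of 31 and below it for 5. Pdia3, a disulfide isomerase of glycoproteins, was at 41.9 FPKM in the CD light and 138 FPKM in the WD light library (interval 2.49 to 4.46), and Creld2, a stress-induced ER protein, at 5.61 and 36.1 FPKM (interval 2.63 to 20.4). Xbp1, a transcription factor of the unfolded protein response, was at 341 and 224 FPKM (interval 0.557 to 0.778), and Edem1, which sends misfolded glycoproteins to degradation, at 130 and 71.3 FPKM (interval 0.467 to 0.647).

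The 39 lysosomal genes had a median of -0.15 and 27 lay below the median of all loci. By the 1.5-fold criterion 3 were higher (7.69%) and 5 lower (12.8%), fewer than among all loci in each direction, while 9 of 33 intervals lay below the median ratio and none above it. Psap, the precursor of the saposins, was at 211 and 105 FPKM (390 and 423 fragments; interval 0.434 to 0.574), and the proteases Ctsd and Ctsl were at 75.2 and 41.0 FPKM and at 381 and 279 FPKM. In total RNA Ctsl was at 358 and 467 FPKM. The 38 proteasome subunits had a median of 0.023.

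In central metabolism, the 10 urea cycle genes had a median of 0.28, with 1 higher and none lower. That gene was Ass1, argininosuccinate synthase, at 47.8 FPKM in the CD light and 124 FPKM in the WD light library (interval 1.92 to 3.56) and at 131 and 107 FPKM in total RNA. The 23 genes of glycolysis and gluconeogenesis had a median of -0.12, with 5 higher (21.7%) and 6 lower (26.1%). Pdk4, which closes pyruvate dehydrogenase in fasting, was at 29.8 and 12 FPKM (interval 0.233 to 0.69), and Fbp1, a gluconeogenic phosphatase, at 75.7 and 201 FPKM (interval 2.07 to 3.44). Khk, which phosphorylates fructose, was at 37.5 and 67.5 FPKM (interval 1.24 to 2.68), while its total RNA was lower in WD, at 68.3 and 45.4 FPKM.

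Circadian clock genes had a median of -0.45 over 14 members (2 higher, 4 lower), with -0.33 in total RNA and -0.033 in the heavy fraction. Bhlhe40, a repressor of the clock, was the 1 member whose interval lay below the median ratio, at 91.2 and 51.4 FPKM (0.454 to 0.702). Among members with at least 20 fragments the median lay -0.044 from that of all loci.

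The remaining functional lists of at least 9 members lay closer to the median of all loci. Positive medians were found for polyamine synthesis (0.21), cytoskeletal genes (0.19), spliceosome and RNA-binding proteins (0.17), conjugation enzymes (0.12), chaperones (0.12), insulin and growth hormone signalling (0.092), selenoproteins (0.064), antioxidant genes (0.052), vesicle traffic (0.051) and amino acid catabolism (0.045). Negative medians were found for alcohol and aldehyde dehydrogenases (-0.16), the tricarboxylic acid cycle (-0.13), glycogen metabolism (-0.11) and iron handling (-0.089). The 9 replication-dependent histones had a median of 0.28, with 4 listed at 0 in the CD light and 3 in the WD light library.

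Of 8 genes measured by qRT-PCR for steatosis or as a check of the fractions, 7 passed the filter, among them Eef1a1 and Rps18 described above, and their median was 0.59. Lpl, which releases fatty acids from lipoproteins, was at 3.69 and 5.59 FPKM (10 and 33 fragments; interval 0.731 to 3.45). Lipe, the hormone-sensitive lipase, was at 1.46 and 0.504 FPKM on 4 and 3 fragments, too few to show a difference. Map3k14 had too low a mean to be compared.

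Structured noncoding RNAs, which no ribosome reads, made the largest contribution to the gain of the WD light library. The summed FPKM of the compared loci was 676999 in the CD light and 864715 in the WD light library, a gain of 187716. The 5 loci of largest gain rose by 247701, so that the rest fell by 59984. Among those 5 was a mitochondrial locus, AY172581.20, at 3441 and 53810 FPKM on 1 and 34 fragments. It is not one of the RNAs named next. Signal recognition particle RNA, which directs ribosomes to the ER, made up 1.03% of the CD light and 8.27% of the WD light sum. One locus of it on chromosome 19 was at 88.3 and 65400 FPKM in the light libraries and at 18.0 FPKM or less in the other 4. The 7SK RNA, a regulator of transcription elongation, made up 2.19% and 6.61%, RNase P RNA, which trims tRNA, 0.0489% and 2.42%, and RNase MRP RNA, which cuts ribosomal RNA precursors, 14.1% and 18.2%.

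Loci of 1 RNA did not agree among themselves. The 7SK locus on chromosome 8 was at 273 FPKM in the CD light and 49134 FPKM in the WD light library, and the one on chromosome X at 12519 and 5758 FPKM. Loci of the mitochondrial chromosome summed to 14.9% of the CD light and 14.8% of the WD light library, but single loci differed, AY172581.20 being at 3441 and 53810 FPKM (1 and 34 fragments) and AY172581.19 at 18927 and 5539 FPKM (11 and 7 fragments). The named genes took 56.4% of the CD light and 41.2% of the WD light sum. A further 44582624 FPKM in the CD light and 27272223 FPKM in the WD light library lay in loci with no symbol, which are outside the comparison. Very short loci have few fragments behind a large FPKM value, as the 26 in each library at the locus on chromosome X. Another scaling moves the changes nearly together, but some gene groups close to the median of all loci change places. With equal sums over loci with a symbol, antioxidant genes moved from 0.035 above that median to -0.009.

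**Figure D5:**
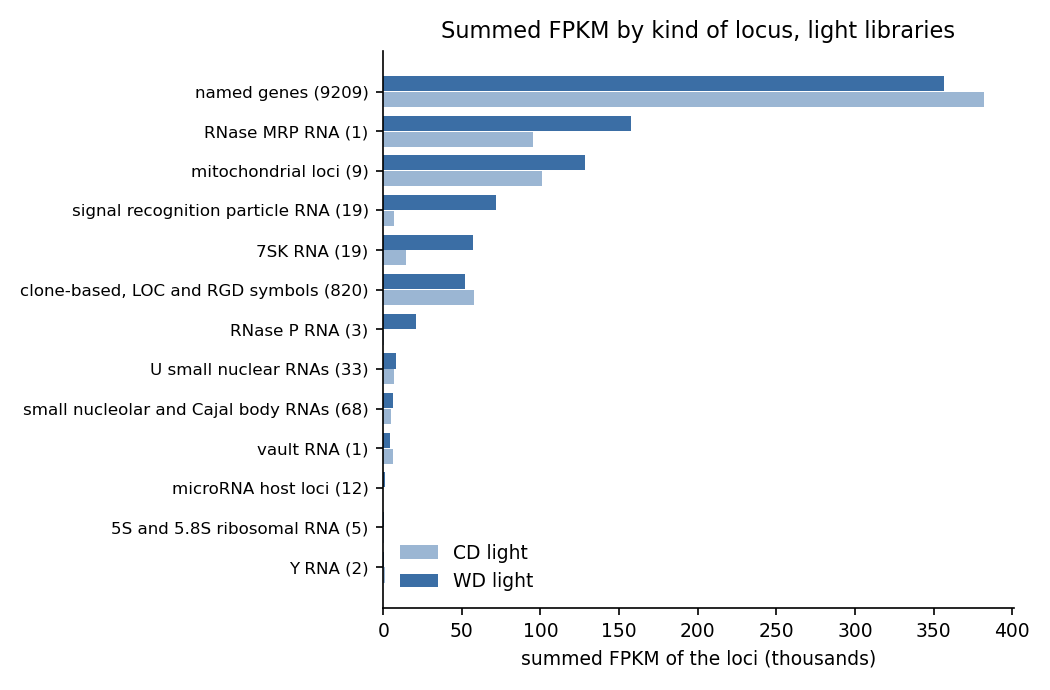
Summed FPKM (horizontal axis) of the compared loci by kind of locus in the CD light (pale bars) and WD light (dark bars) libraries, with the number of loci in brackets. Signal recognition particle, 7SK, RNase P and RNase MRP RNA were higher in the WD light library, and the sum over named genes was lower.

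Some of the highest ratios fell on loci with a neighbour. Ccdc152 was at 157 FPKM in the CD light and 2674 FPKM in the WD light library, and lies within 1 kb of Sepp1, the gene of the plasma selenium carrier, which was at 8116 and 4826 FPKM. Hrsp12, an imine deaminase abundant in liver, was at 27.9 and 652 FPKM (interval 14.1 to 42.0) with 42.0 and 37.2 FPKM in total RNA, and lies within 1 kb of Pop1. Whether the reads belong to the named gene was not tested.

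Erythroid markers were mostly higher in the WD light library. The 5 genes of the globin list, 4 globins and Alas2, had a median of 2.71 in the light fraction, -0.61 in total RNA and 0 in the heavy fraction, and the 6 erythroid markers, of which 5 are these genes, had 1.96. Hbb, the beta globin, was at 13.9 FPKM in the CD light and 242 FPKM in the WD light library (5 and 189 fragments; interval 7.32 to 54.2), at 13.3 FPKM in CD total RNA and listed at 0 in WD total RNA. Alas2, the erythroid enzyme of haem synthesis, was lower, at 19.7 and 7.18 FPKM. Of 12 lymphocyte markers 3 passed the filter, at 0.826 to 2.87 FPKM in the light libraries and with a median change of 0.82 (2 higher). Of 8 cholangiocyte markers only Epcam did, at 1.01 and 1.40 FPKM, and of 10 neutrophil and platelet markers Itga2b was at 0.440 and 2.03 FPKM and Pf4 was listed at 0 in both. The part of blood in the ribosomal protein result was not tested.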

How the data were processed

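RNA of 3 rat livers was pooled per library, and polysome gradients were divided by the authors into light and heavy fractions beside total RNA, giving 1 library for each diet and RNA. The authors mapped the reads to Rnor_6.0 with TopHat, and estimated FPKM values with Cufflinks and Cuffnorm. The deposited unit is therefore FPKM per locus, with lower and upper bounds and a status, and columns of fold changes were not used. Whether counting used strand is not given in the sources used here.

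Kept were loci with a symbol, status OK and 1 FPKM or more on average over the 6 libraries. Changes are log2 of WD over CD after 0.1 FPKM was added, on the deposited scale. A list was called higher or lower at 0.25 from the median of all loci, and a locus at 1.5-fold. Fragments were inferred where the FPKM values of a locus, scaled by library, were whole multiples of 1 value (relative tolerance 2e-05, up to 400 multiples). This held for 75.2% of 12459 genes, against 0.161% after 1% noise. The bounds served as a separate check, in which 83% of the 36435 values of up to 30 fragments had the shared bound. Numbers that implied a transcript over 8 times the median length were not used (158 loci). Clopper-Pearson 95% intervals of the light ratio were set against the median ratio of all loci. With 1 library per group no test was made and no p-value computed. Tested on simulated data for the light fraction, the intervals called 99% of 200 genes changed 3-fold and 2.95% of unchanged genes among 7256. The 99% cannot be carried to loci with few fragments, and 52.1% of loci had 10 or fewer in the CD light library. Eif3i, with a ratio of 3.22 on 2 and 14 fragments, had an interval of 0.739 to 29.2. A locus without a call is therefore not shown to be unchanged.

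The members and the 48 functional and 9 marker lists were chosen with earlier results of these data known. Named were the 15 highest and 15 lowest well counted genes of at least 10 FPKM, the 10 loci of largest gain and of largest loss, the most abundant loci, the 4 highest, 4 lowest and most abundant members of each list, and the genes of the study's qRT-PCR. Pseudogenes, start windows and coordinates of starts came from RefSeq (GRCr8); gene positions are those of the expression table. Scripts ran in Python 3.11.15, with intervals from scipy 1.17.1, tables handled in pandas 2.3.3 with numpy 2.4.6, and plots drawn with matplotlib 3.10.9. Some genes named by these rules are not reported here.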

Additional observations from a re-analysis of the deposited data

Results flagged for a closer look

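3 lists had a median on opposite sides in the light fraction and in total RNA, by a wide margin, and in each case the difference was not tested because every diet and RNA had 1 library. The globins had a median log2 change, WD over CD, of 2.71 in the light fraction and -0.61 in total RNA. The erythroid markers, which hold the same globins, had 1.96 and -0.64. The structured noncoding RNAs, a list of 5 compared loci, had 5.98 and -0.33. Where a symbol had several loci, the list took the one of highest mean. Over all compared loci the light median was 0 for signal recognition particle RNA (19 loci, 9 higher, 6 lower). It was also 0 for 7SK RNA (19 loci, 4 higher, 3 lower).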

How the results depend on the processing

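No paired analysis was possible because each diet and fraction had 1 library, and for the same reason no library could be left out. Against 2642 higher and 2097 lower loci, a median change of 0.017, 10 lists above and 8 below the median of all loci, and 300 list members higher and 206 lower, these values moved by more than 1.5-fold or past the limit set. A mean of at least 10 FPKM gave 696 higher and 804 lower loci, 6 lists above and 182 members higher, and no filter gave 4282 higher loci. Equal sums over loci with a symbol gave 3551 lower loci, a median of -0.29 and 388 members lower. A 2-fold criterion gave 1666 and 1059 loci and 191 and 87 members. Of the alternatives chosen after seeing the data, equal sums over all loci gave 5627 and 616 loci, a median of 0.70 and 657 and 42 members, loci with at least 20 fragments gave 975 and 797 loci and 168 and 114 members, and loci without a named pseudogene gave 3 lists above and 160 members higher. The scale between the light libraries thus sets the split of higher and lower loci. The histone median became 0 at a mean of at least 0.1 FPKM, without a filter, and without named copies, and the mitochondrial import median became -0.10 at a mean of at least 10 FPKM. Of 36 genes followed through the settings (those with the largest well counted differences and those of the qRT-PCR), none at least 1.5-fold apart changed sign in a setting that kept it, while under equal sums over all loci Ucp2 turned from -0.53 to 0.15 and Pfkfb3 from -0.29 to 0.35. Intervals set against a ratio of 1 gave 603 loci above and 663 below. The change by protein length was not run. By inferred transcript length, in 5 equal groups from shortest to longest, the median change was 0.043, 0, 0.021, 0.016 and 0.044. The spread did differ by length. The shares higher and lower were 35.4% and 26.4% in the shortest group and 19.4% and 13% in the longest. In the shortest group the median was 0.82 for 20 large subunit genes, 0.83 for 22 small subunit genes and 0.53 for 22 complex I genes.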
